A study of Mus musculus with 97 samples.

Results

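The 10 genes described here are the trophectoderm regulators Cdx2, Eomes, Gata2, Gata3, Dlx3, Hand1, Tfap2c and Tead4 and the keratins Krt8 and Krt18. They were chosen by symbol, with earlier results of these data known, and each symbol matched 1 entry of the 37620 genes in the count table. Of the 10, 9 passed the filter on low counts (10 counts at the median library size in at least 3 libraries), as did 16011 genes in all, and Hand1 did not. Dlx3 reached that minimum in 8 of 9 auxin libraries and in 0 of 9 untreated ones.

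The series holds 97 samples and asked how transcription factors and nucleosomes behave through mitosis in mouse embryonic stem (ES) cells. Its RNA arm asked what loss of Sox2 does at successive points of the cell cycle. All 18 RNA libraries came from a single Sox2-AID ES line, whose Sox2 protein is fused to the auxin-inducible degron so that adding auxin sends it for destruction. Cells were kept in medium with serum and LIF, were exposed to 0.5 mM auxin for 3 h or left untreated, and had 20 µM Hoechst, a DNA dye, for the last 20 min. They were then sorted by Hoechst and GFP level into early G1, late G1 and G2, with 3 libraries of ribosome-depleted total RNA in each of the 6 groups. The labels do not say what the GFP reports, nor whether replicates were separate cultures, so each p-value measures the spread between these libraries. No auxin-treated line without the degron was analysed here, so effects of auxin and of Sox2 loss cannot be told apart.

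The trophectoderm is the outer epithelium of the blastocyst and gives rise to the placenta, whereas ES cells derive from the inner cell mass. In the outer cells Tead4, with its co-activator Yap1, switches on Cdx2, and Gata3 acts beside it. Cdx2, Eomes and Tfap2c then sustain trophoblast stem cells, and Oct4 and other pluripotency factors keep these genes low in ES cells. Gata2, Dlx3 and Hand1 act later in placental cell types, and Krt8 and Krt18 pair as the first keratin filaments of the embryo.

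The promoters of Cdx2, Eomes and Gata2, among the members whose RNA differed most with auxin, and of the keratin pair are shown. They are the regulatory sequences next to the measured transcripts. RefSeq promoters on GRCm38.p6 were found for 6 of the 10 members, and the set used held none for Dlx3, Hand1, Tfap2c and Tead4. The Gata3 promoter was found but is not printed, and none of the motifs named below matched in it. Each line holds the 250 bases before the annotated start, 5′ to 3′ on the strand of the gene. Capitals mark matches, on either strand, to the octamer ATGCAAAT bound by Oct4, the Sox core ACAAAG, the Tead core GGAATG, the Gata cores AGATAA and TGATAA, the CCAAT box and the TATA box TATAAA. No pair of the matches shown overlapped. Cdx2 lies at chr5:147307250-147307499 (minus strand), Eomes at chr9:118477939-118478188 (plus), Gata2 start 1 at chr6:88193641-88193890 (plus), Gata2 start 2 at chr6:88198414-88198663 (plus), Krt8 at chr15:102004343-102004592 (minus) and Krt18 at chr15:102027966-102028215 (plus).
Cdx2: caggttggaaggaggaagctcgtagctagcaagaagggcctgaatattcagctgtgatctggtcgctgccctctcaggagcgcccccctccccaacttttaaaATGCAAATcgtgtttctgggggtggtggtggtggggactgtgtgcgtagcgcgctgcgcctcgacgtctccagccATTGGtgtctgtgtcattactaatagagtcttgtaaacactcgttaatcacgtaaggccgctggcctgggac
Eomes: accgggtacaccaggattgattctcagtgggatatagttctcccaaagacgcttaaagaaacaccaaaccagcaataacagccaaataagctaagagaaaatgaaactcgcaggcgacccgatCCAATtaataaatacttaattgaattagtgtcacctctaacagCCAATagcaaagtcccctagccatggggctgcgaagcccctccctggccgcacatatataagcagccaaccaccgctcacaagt
Gata2 start 1: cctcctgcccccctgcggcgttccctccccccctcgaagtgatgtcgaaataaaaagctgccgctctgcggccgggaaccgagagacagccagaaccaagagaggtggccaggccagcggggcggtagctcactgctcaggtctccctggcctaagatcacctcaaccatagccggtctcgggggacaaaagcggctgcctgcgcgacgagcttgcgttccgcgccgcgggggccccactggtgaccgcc
Gata2 start 2: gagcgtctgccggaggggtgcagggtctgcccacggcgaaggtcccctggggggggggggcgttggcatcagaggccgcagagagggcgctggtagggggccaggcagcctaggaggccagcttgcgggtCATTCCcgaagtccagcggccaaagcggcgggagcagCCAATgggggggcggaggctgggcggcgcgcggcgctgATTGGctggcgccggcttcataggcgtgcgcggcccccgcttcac
Krt8: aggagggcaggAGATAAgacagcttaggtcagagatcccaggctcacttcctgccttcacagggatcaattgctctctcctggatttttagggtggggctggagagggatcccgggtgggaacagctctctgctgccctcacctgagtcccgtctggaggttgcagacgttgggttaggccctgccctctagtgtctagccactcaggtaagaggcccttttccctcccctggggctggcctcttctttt
Krt18: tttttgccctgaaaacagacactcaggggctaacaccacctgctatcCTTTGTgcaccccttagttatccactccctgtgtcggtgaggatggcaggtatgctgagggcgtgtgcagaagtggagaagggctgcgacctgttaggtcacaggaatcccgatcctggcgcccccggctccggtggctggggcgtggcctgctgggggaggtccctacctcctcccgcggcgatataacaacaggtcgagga

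The Cdx2 promoter held the octamer at positions -147 to -140 from the start, a match found in 1.60% of the 32851 RefSeq promoters over the same length. The Sox core was found in the Krt18 promoter, on the opposite strand, as in 16.5% of all promoters. CCAAT boxes stood in Cdx2, in Eomes at 2 places and in Gata2 start 2 at 2 places, and in 33.8% of all promoters. Gata2 start 2 also held the Tead core (12.6% of promoters) and Krt8 a Gata core, AGATAA (9.99%). The 250 bases of Gata2 start 1 held none of the letters searched, TGATAA (7.94% of all promoters) and TATAAA (12.4%) matched in none of the printed promoters, and these matches are descriptions of sequence only.

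Totals ran from 24841963 to 37587322 counts per library. The 8 listed ES markers, Pou5f1 and Sox2 among them, summed to 3493 to 4148 CPM (counts scaled to library size) per library. Of markers of other types, 8 mesoderm genes summed to 2.82 to 7.16 CPM, 8 fibroblast genes to 3.06 to 7.07, 5 neural genes to 16.3 to 34.6 and 9 primitive endoderm genes to 79.3 to 199. Most of the neural sum was Nes (median 24.6 CPM) and most of the primitive endoderm sum the matrix genes Lama1 (69.4) and Col4a1 (49.5), whereas Gata4, Gata6 and Sox17 had medians of 0.833, 1.52 and 1.02 CPM. The 3 untreated libraries numbered 3 stood apart on the first principal component and had the lowest totals in their groups. Sox2 RNA itself did not pass the test in the auxin average (log2 fold change 0.09, edgeR adjusted p = 0.527), which does not check the labels because the degron acts on the protein.

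On the deposited TPM scale, which corrects for transcript length and library size, the members fell into 3 tiers in untreated cells. Tead4 had a median of 2.07 TPM, Krt8 of 1.45 and Krt18 of 1.30 over the 9 untreated libraries, with overlapping ranges. Tfap2c followed at 0.63 TPM (0.36 to 0.71) and Eomes at 0.32 (0.16 to 0.49). Gata2 (0.06), Cdx2 (0.04), Gata3 (0.02), Dlx3 (0.01) and Hand1 (0.01) were near the 2-decimal resolution of that table, so their order is not resolved. For scale, Oct4 (Pou5f1) had a median of 153.7 TPM over the 18 libraries. The top tier was therefore low beside an ES regulator, and the bottom tier rested on 0 to 35 counts per library without auxin.

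Tested members had a larger rise with auxin (Dlx3, Gata2, Cdx2 and Eomes), a small rise or none, or fell (Tfap2c). Averaged over the 3 phases, Dlx3, Gata2, Cdx2, Eomes, Krt18 and Krt8 rose, Tfap2c fell, and Tead4 and Gata3 did not pass the test (edgeR quasi-likelihood test, Benjamini-Hochberg adjusted p under 0.05 over all genes). That is 6 that rose where 2.6% of all tested genes rose, and 1 that fell where 3.09% fell (5.68% called in all). The median log2 fold change of the 9 tested members was 0.43, against 0.006 for all tested genes. Among the 416 genes that rose, Dlx3 ranked 1 by size, Gata2 5, Cdx2 26 and Eomes 34. Dlx3 passed the low-count filter through its auxin libraries alone (8 of 9, against 0 of 9 untreated). Its call and rank therefore follow in part from that filter and lend no support, and the count and median above include it. Bulk RNA cannot tell whether a few cells changed much or all cells a little, nor can fewer cells of a type and less RNA per cell be told apart.

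**Figure D1:**
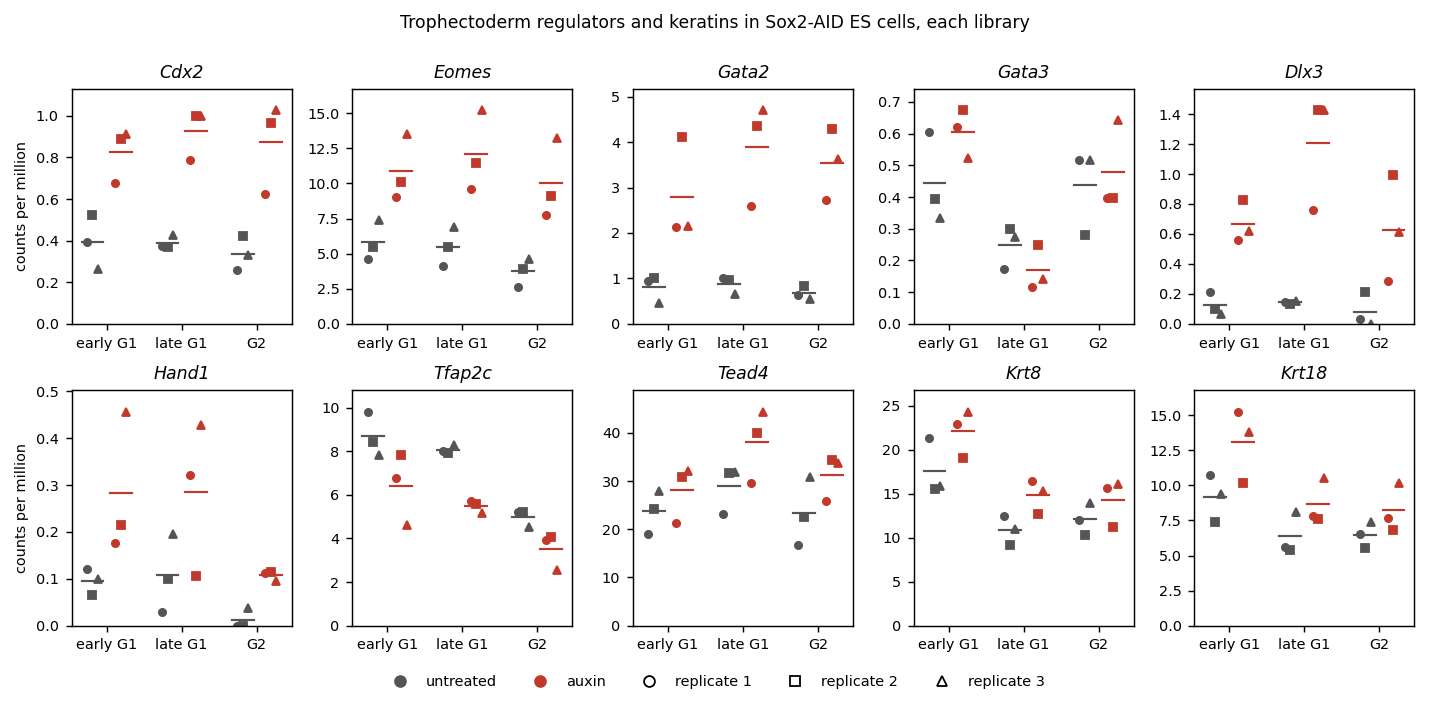
Values in CPM (vertical axes, each from 0) of the 10 members in every library, by phase on the horizontal axes; symbols give the replicate number, colour the treatment and short lines the mean of 3. Auxin libraries of Cdx2, Eomes, Gata2 and Dlx3 lie above the untreated ones in each phase, those of Tfap2c lie lower in late G1 and G2, and those of Gata3 are mixed.

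Cdx2, the homeobox factor that defines trophectoderm, was present at a handful of reads. Untreated libraries of early G1 held 13, 16 and 8 counts (0.394, 0.523 and 0.266 CPM for replicates 1, 2 and 3) and the auxin libraries 23, 29 and 28 (0.679, 0.889 and 0.914 CPM). Late G1 gave 0.374, 0.367 and 0.429 CPM untreated against 0.787, 0.999 and 0.998 after auxin. G2 gave 0.258, 0.422 and 0.332 CPM untreated against 0.623, 0.965 and 1.03 after auxin. Every auxin library lay above every untreated library, and replicate 1 was the lowest of its 3 auxin libraries in each phase. The average difference was 1.22 ± 0.19 (log2, SE), or 2.33-fold, with edgeR adjusted p = 0.000490. Within single phases the fitted values (1.06 early G1, 1.24 late G1, 1.36 G2) did not pass (edgeR adjusted p = 0.519, 0.0777 and 0.0712). In the blocked model the late G1 value of 1.23 ± 0.32 passed (edgeR adjusted p = 0.0217).

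Eomes, the T-box factor of trophoblast stem cells and also of early mesendoderm, was the most abundant of the members with a larger rise. Early G1 libraries held 4.64, 5.49 and 7.38 CPM untreated against 9.06, 10.1 and 13.5 after auxin. Late G1 libraries held 4.11, 5.48 and 6.91 CPM against 9.62, 11.5 and 15.2. G2 libraries held 2.61, 3.94 and 4.65 CPM against 7.73, 9.08 and 13.2. Replicate 1 was lowest and replicate 3 highest in all 6 groups, and the groups did not overlap in any phase. The average rise was 1.16 ± 0.15 (log2, SE), or 2.23-fold (edgeR adjusted p = 0.000116). Eomes rose by 1.14 ± 0.26 in late G1 (edgeR adjusted p = 0.0423) and by 1.42 ± 0.27 in G2 (0.0129), and its early G1 value of 0.90 ± 0.26 did not pass (0.441). In the model with replicate number as a block, the early G1 value was 0.91 ± 0.10 with edgeR adjusted p = 7.28e-06. Of the 8 mesoderm and primitive streak markers, 4 were abundant enough to test: Wnt3 rose by 0.92 ± 0.26 (edgeR adjusted p = 0.0451), Kdr fell by 0.86 ± 0.13 (edgeR adjusted p = 0.000486), and Mixl1 (0.17) and Tbx6 (-0.64) did not pass (edgeR adjusted p = 0.714 and 0.285). T, not tested, had a median of 0.064 CPM. The summed mesoderm markers were 3.65 to 7.16 CPM untreated and 2.82 to 4.84 with auxin. Most of that sum was Kdr, with a median of 2.62 CPM over the 18 libraries against 0.422 for the next, Mixl1, and the part of these markers in the Eomes result was not tested.

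Gata2, a zinc-finger factor of trophoblast and of blood stem cells, followed Dlx3 in size. In early G1 it stood at 0.939, 1.01 and 0.465 CPM untreated against 2.12, 4.11 and 2.15 after auxin. In late G1 the libraries held 1.01, 0.969 and 0.663 CPM against 2.59, 4.35 and 4.71. In G2 they held 0.645, 0.843 and 0.553 CPM against 2.72, 4.28 and 3.63. The highest untreated value of the 9 was 1.01 CPM and the lowest auxin value 2.12, so no library crossed. Gata2 rose in every phase, by 1.79 ± 0.34 (log2, SE) in the early G1 sort, 2.12 ± 0.33 for late G1 and 2.37 ± 0.34 for G2 (edgeR adjusted p = 0.0445, 0.00199 and 0.00167). The average was 2.09 ± 0.20, or 4.27-fold, with edgeR adjusted p = 2.18e-06.

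Dlx3, a homeobox factor needed in the placental labyrinth, showed the largest fold of the tested members on few reads. Untreated early G1 libraries held 7, 3 and 2 counts, and auxin libraries 19, 27 and 19. Late G1 libraries held 5, 4 and 4 counts against 26, 40 and 40. G2 libraries held 1, 6 and 0 counts against 10, 35 and 19. Summed over phases these are 32 counts untreated and 235 with auxin, a depth-scaled ratio of 6.87 with a 95% exact interval of 4.74 to 10.3 that covers counting error only. The fitted average was 2.76 ± 0.37 (log2, SE; edgeR adjusted p = 0.000122). Dlx3 rose by 3.02 ± 0.60 in late G1 (edgeR adjusted p = 0.0163), and the values of 2.36 in early G1 and 2.90 in G2 did not pass (0.344 and 0.0657). In the blocked model the early G1 value was 2.32 ± 0.55 (edgeR adjusted p = 0.0316).

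Hand1, a basic helix-loop-helix factor of trophoblast giant cells and of the heart, lay under the filter. Its libraries held 4, 2 and 3 counts untreated and 6, 7 and 14 with auxin in early G1. In late G1 they held 1, 3 and 5 against 11, 3 and 12, and in G2 0, 0 and 1 against 4, 4 and 3. Late G1 groups overlapped, an auxin library at 3 counts lying below an untreated one at 5, and the groups of the other phases did not overlap. The sums were 19 and 64 counts, a depth-scaled ratio of 3.15 (95% exact interval 1.86 to 5.57, counting error only). In G2 the ratio of 9.36 rested on a single untreated count and had an interval of 1.36 to 403.0. Fitted without the filter, over 25860 genes, Hand1 differed by 1.94 ± 0.51 (log2, SE) in the average with edgeR adjusted p = 0.0308, and no single phase passed (0.660 to 0.887).

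Gata3, which acts beside Cdx2 in the blastocyst, did not move in 1 direction. Untreated libraries held 0.606, 0.392 and 0.332 CPM in early G1, then 0.172, 0.301 and 0.273 for late G1 and 0.516, 0.281 and 0.516 for G2. Auxin libraries held 0.620, 0.674 and 0.522, then 0.117, 0.250 and 0.143, then 0.396, 0.397 and 0.642. The groups overlapped in every phase, and auxin was higher in 5 of 9 same-numbered pairs. The average was 0.005 (edgeR adjusted p = 0.997), and the early G1, late G1 and G2 values were 0.44, -0.54 and 0.12. At 102 untreated and 122 auxin counts the depth-scaled ratio was 1.12, with a 95% exact interval of 0.853 to 1.47 that covers counting error only. Replicates spread beyond counting error and the interval pools phases of unlike sign, so it does not bound the difference in any phase. In RefSeq, 2 lncRNA genes that are also in the count table overlap Gata3. Others overlap Eomes, Gata2 and Hand1, and whether the counting used strand is not given in the sources used here.

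**Figure D2:**
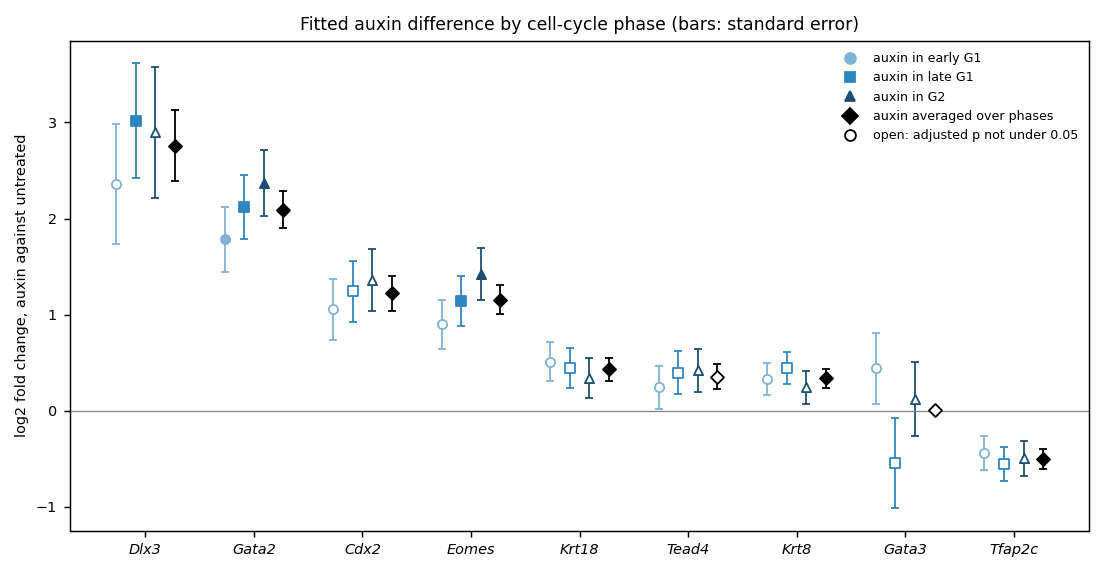
Fitted log2 fold changes (vertical axis, auxin against untreated, bars ± 1 SE) of the 9 tested members by phase and averaged; filled symbols have an edgeR adjusted p under 0.05. Dlx3 and Gata2 sit highest, at 2.76 and 2.09 in the average, and Tfap2c is below 0 throughout; no bar is drawn for the Gata3 average, whose SE cannot be taken from a difference so near 0.

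Tfap2c, the AP-2 gamma factor that maintains trophoblast stem cells and is also expressed in the germ line, was the member that fell. Early G1 libraries stood at 9.82, 8.44 and 7.85 CPM untreated against 6.76, 7.85 and 4.63 after auxin. Late G1 libraries stood at 8.02, 7.92 and 8.27 CPM against 5.71, 5.57 and 5.17. G2 libraries stood at 5.23, 5.20 and 4.54 CPM against 3.94, 4.09 and 2.57. All 9 same-numbered pairs were lower with auxin on both CPM and TPM, the groups did not overlap in late G1 and G2, and in early G1 they met at replicate 2 with auxin and replicate 3 without, both at 7.85 CPM. The average change was -0.50 ± 0.10 (log2, SE), a fold of 0.709, with edgeR adjusted p = 0.00707. Single phases gave -0.44, -0.56 and -0.50 for early G1, late G1 and G2 and did not pass (edgeR adjusted p = 0.825, 0.205 and 0.429). In the blocked model Tfap2c fell in late G1 (-0.56 ± 0.14, edgeR adjusted p = 0.0156). Without all 6 libraries numbered 1, the average of -0.51 did not pass (edgeR adjusted p = 0.115).

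Tead4, the DNA-binding partner of Yap1 upstream of Cdx2, had the highest median TPM of the members over the untreated libraries. In early G1 alone the mean of Krt8 was above it (2.28 ± 0.17 against 1.91 ± 0.51 TPM untreated, SD, n = 3). Early G1 libraries held 18.9, 24.2 and 27.9 CPM untreated against 21.3, 30.9 and 32.1 after auxin. Late G1 libraries held 23.1, 31.6 and 32.0 CPM against 29.6, 40.0 and 44.4, and G2 libraries 16.8, 22.6 and 30.9 against 25.8, 34.3 and 33.8. Replicate 1 was the lowest in all 6 groups, the groups overlapped in every phase, and each of the 9 pairs was higher with auxin in CPM (7 of 9 in TPM). The average of 0.35 ± 0.13 (log2, SE) did not pass (edgeR adjusted p = 0.118). It passed with the replicate block (0.36 ± 0.05, edgeR adjusted p = 6.20e-06), where 24.6% of all genes were called, and without the untreated libraries numbered 3 (0.51, edgeR adjusted p = 0.0480). Among single phases the late G1 value passed with the block (0.39 ± 0.08, edgeR adjusted p = 0.00279).

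Krt8, the type II keratin of simple epithelia, and Krt18, its type I partner, had smaller fitted values than Cdx2, Eomes, Gata2 and Dlx3. In early G1 Krt8 stood at 21.3, 15.6 and 15.9 CPM untreated against 22.9, 19.0 and 24.3 after auxin. In late G1 it stood at 12.5, 9.22 and 11.0 CPM against 16.5, 12.7 and 15.3, and in G2 at 12.0, 10.3 and 13.9 against 15.7, 11.2 and 16.1. All 9 pairs were higher with auxin, and the groups were apart in late G1 alone. Krt18 stood at 10.8, 7.39 and 9.37 CPM against 15.3, 10.2 and 13.8 in early G1. In late G1 it stood at 5.63, 5.38 and 8.08 CPM against 7.81, 7.64 and 10.6, and in G2 at 6.55, 5.52 and 7.41 against 7.65, 6.81 and 10.2. Its 9 pairs were also all higher with auxin, while its groups overlapped in every phase.

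In the auxin average Krt8 rose by 0.34 ± 0.10 (log2, SE; 1.26-fold, edgeR adjusted p = 0.0471) and Krt18 by 0.43 ± 0.12 (1.35-fold, edgeR adjusted p = 0.0387). Both calls were marginal. On the TPM scale, where the median of all tested genes moved by -0.16 (log2 of TPM plus 0.1), the averages were 0.12 for Krt8 and 0.21 for Krt18 and did not pass (limma adjusted p = 0.217 and 0.183). The Krt8 call was lost in 12 of 18 omissions of 1 library (edgeR adjusted p = 0.0663 to 0.106): replicates 2 and 3 untreated and 1 and 3 with auxin of both G1 sorts, and replicates 1 and 2 untreated and 1 and 3 with auxin in G2. The Krt18 call was lost in 10 of 18 (0.0539 to 0.0876): the same 4 libraries of early G1, replicates 1 and 2 untreated and 3 with auxin in late G1, and the same in G2. With the replicate block Krt18 rose in early G1 (0.51 ± 0.12, edgeR adjusted p = 0.0316), and both keratins rose in late G1 (0.44 ± 0.10 for Krt8 and 0.45 ± 0.13 for Krt18, edgeR adjusted p = 0.00738 and 0.0387). The Krt8 to Krt18 ratio in TPM ranged from 1.01 to 1.64 over the untreated libraries and from 1.07 to 1.57 over the auxin libraries, so the pair kept similar proportions. RefSeq also holds a Krt8 pseudogene, whose reads the counting could share with Krt8.

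**Figure D3:**
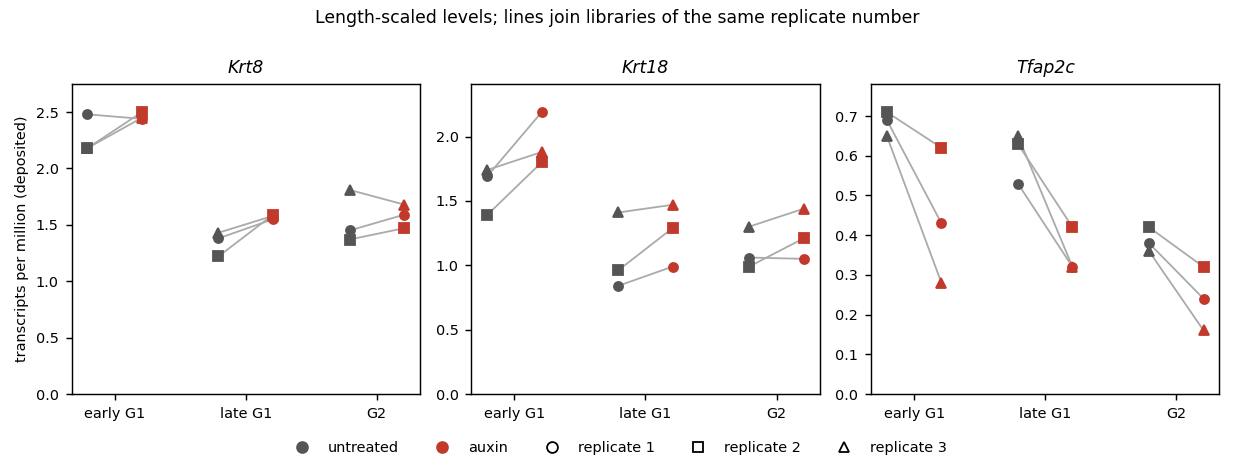
Deposited TPM (vertical axes from 0) of Krt8, Krt18 and Tfap2c by phase (horizontal axes), with grey lines joining the untreated and auxin libraries of 1 replicate number. Krt8 is higher with auxin in 7 of 9 pairs and Krt18 in 8 of 9, Tfap2c is lower in 9 of 9, and both keratins are highest in early G1.

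In single phases the calls were fewer. In early G1, 1 of the 9 tested members was called, Gata2, against 0.106% of all genes (0.0812% rose). In late G1, Gata2, Eomes and Dlx3 rose against 1.02% called (0.493% rose), and in G2 Gata2 and Eomes against 0.668% (0.387% rose). With the replicate block, 4 members rose in early G1, Eomes, Gata2, Dlx3 and Krt18, where 1.59% of all genes were called and 0.768% rose. In late G1 the block gave 7 that rose, Cdx2, Eomes, Gata2, Dlx3, Tead4, Krt8 and Krt18, and Tfap2c that fell, where 5.95% were called (2.52% rose and 3.42% fell). Cdx2, Eomes, Gata2 and Dlx3 had auxin libraries above all untreated libraries in each of the 3 phases, as did 1.04% of all tested genes. Another member stood entirely above in each phase, Hand1 in early G1 and G2 and Krt8 in late G1. That makes 5 members per phase where 5.25%, 6.8% and 5.47% of tested genes did so. These shares do not cover Hand1, which was not tested, and Dlx3 passed the filter through its auxin libraries alone. Tfap2c was the 1 member entirely below in late G1 and in G2, as were 6.9% and 5.5% of tested genes. The early G1 call of Gata2 was lost without any 1 of the 6 libraries except auxin replicate 1 (edgeR adjusted p = 0.0926 to 0.285). In late G1 the Dlx3 call was lost under the same omissions (0.0630 to 0.0833) and the Eomes call without untreated replicate 1 or 2 or auxin replicate 2 or 3 (0.0933 to 0.203). In G2 the Eomes call was lost without untreated replicate 1 or 2 or auxin replicate 3 (0.0594 to 0.0958).

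The size of the auxin difference was not shown to depend on the phase for any member. Tests of the difference between phases called 0 of the 9 members (all but Hand1) and 0% of all genes for each of the 3 phase pairs (edgeR). No member had an unadjusted p under 0.05 in the model without a replicate block, the smallest being 0.119 (Gata3, late minus early G1). Of the 16011 tested genes 222, 222 and 218 did (late against early G1, G2 against early G1, G2 against late G1). That is fewer than a threshold of 0.05 would give if no gene differed. The test without a block was therefore conservative, and the lack of small p-values says little about the members. DESeq2 also called 0 members, and 1, 0 and 0 of all genes. For Eomes the G2 effect exceeded that in early G1 by 0.52 (log2), with a 95% interval of -0.25 to 1.30. For Gata2 the same difference was 0.59, with an interval of -0.43 to 1.60. In this model without a replicate block, intervals this wide leave differences between phases of more than 2-fold unresolved. With the block the Eomes difference was 0.51 ± 0.14 (log2, SE) and still did not pass (edgeR adjusted p = 0.9999). Pairing by number was not clear for auxin in G2.

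Among untreated cells the mean CPM of both keratins was highest in early G1, and that of Tfap2c was lowest in G2. Krt8 fell from 17.6 ± 3.2 CPM in early G1 to 10.9 ± 1.6 in late G1 (mean ± SD, n = 3 libraries), a log2 change of -0.69 ± 0.17 (SE; edgeR adjusted p = 0.0179). It was the 1 member called there, where 7.02% of all genes were called and 3.75% fell. Krt18 changed by -0.53 ± 0.21, which did not pass (edgeR adjusted p = 0.139). With the replicate block Krt8 and Krt18 fell and Tead4 rose (0.29 ± 0.08, edgeR adjusted p = 0.0120), where 21.8% of genes were called. The Krt8 call was lost without early G1 replicate 1 or late G1 replicate 2 (edgeR adjusted p = 0.107 and 0.0938), and without all untreated libraries numbered 3 (0.0575).

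In untreated G2 cells Tfap2c, at 4.99 ± 0.39 CPM (mean ± SD, n = 3), was below early G1 (8.70 ± 1.01) and late G1 (8.07 ± 0.18). The change was -0.80 ± 0.18 (log2, SE) from early G1 (edgeR adjusted p = 0.0179) and -0.69 ± 0.18 from late G1 (edgeR adjusted p = 0.0310), and no library of G2 reached either group. It was the 1 member called in each comparison, where 3.6% and 5.04% of all genes were called and 1.7% and 2.32% fell. From early G1 to G2, Krt8 and Krt18 did not pass (edgeR adjusted p = 0.0850 and 0.223). With the replicate block, Eomes, Krt8 and Krt18 also fell from early G1 to G2 (14.7% of genes called), by 0.65, 0.54 and 0.50, and Eomes and Tead4 also fell from late G1 to G2 (15.9% called), by 0.56 and 0.32. The first Tfap2c call was lost without early G1 replicate 1 or any G2 replicate (edgeR adjusted p = 0.0555 to 0.0783), the second without any 1 of the 6 libraries (0.0745 to 0.0955), and both without the untreated libraries numbered 3 (0.0972 and 0.163). Cdx2, Gata2, Gata3 and Dlx3 passed in none of these phase comparisons, and Hand1 was not tested in them.

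The other genes of the pathway were taken from lists drawn up with earlier results of these data known. Of 26 tested trophectoderm and trophoblast stem genes, 2 rose and 1 fell in the auxin average (5.68% of all genes called), with a median of 0.22. Wnt7b, a Wnt ligand of the placenta, rose by 1.18 ± 0.24 (log2, SE; edgeR adjusted p = 0.00888), from 6.39 to 22.2 CPM over untreated libraries (median 10.6) to 12.2 to 40.9 over auxin libraries (25.5). Aqp3, a water channel of the blastocyst epithelium, rose by 0.46 ± 0.06 (edgeR adjusted p = 0.000149). Klf5, needed in both trophectoderm and ES cells, fell by 0.79 ± 0.17 (edgeR adjusted p = 0.0141), from a median of 55.6 CPM to 34.6. Elf5, a defining factor of trophoblast stem cells, had 18 counts in all 18 libraries together and was not tested.

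Most differentiated trophoblast genes were at or near 0. Of 18 listed, 7 had 0 counts in every library, among them the placental hormones Prl3d1 and Prl3b1 and the spongiotrophoblast marker Tpbpa, and 5 were tested. Gcm1, the factor of syncytiotrophoblast, rose by 1.15 ± 0.18 (log2, SE; edgeR adjusted p = 0.000590), from a median of 0.613 CPM over the 9 untreated libraries to 1.35 over the 9 with auxin. Mmp9, a secreted protease, rose by 0.94 ± 0.26 (edgeR adjusted p = 0.0388). It stood at 0.05 on log2(TPM + 0.1), where the median of all tested genes was -0.16, and did not pass there (limma adjusted p = 0.861). Of the 5 tested, 2 rose and 0 fell, where 2.6% of all tested genes rose and 3.09% fell. Fitted values were above 0 for 4 of the 5, and the median was 0.62. The summed list stood at 14.6 to 23.6 CPM untreated and at 13.6 to 23.9 with auxin, and most of that sum was Cited2, a transcriptional co-regulator with a median of 17.4 CPM and a value of -0.22 that did not pass (edgeR adjusted p = 0.0876).

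Among 20 tested entries of Hippo pathway genes and Tead partners, 3 rose and 1 fell, and the median was 0.06. Tead1 has more than 1 tested entry and is counted by entry. Of all tested genes, 2.6% rose and 3.09% fell. Tead3, a paralog of Tead4, rose by 0.63 ± 0.13 (log2, SE; edgeR adjusted p = 0.00548), with auxin libraries at 2.33 to 4.00 CPM above all untreated ones at 1.29 to 2.27. Vgll4, which competes with Yap1 for Tead factors, rose by 0.30 ± 0.07 (edgeR adjusted p = 0.0123). Tead2 rose by 0.14 ± 0.04 (edgeR adjusted p = 0.0394). It stood at -0.12 on log2(TPM + 0.1), where the median of all tested genes was -0.16. Ctgf, a Yap1 target, fell by 0.64 ± 0.15 (edgeR adjusted p = 0.0127), and Yap1 itself stood at 0.03 (0.781). Of the 11 tested entries of the members' paralogs, with Tead1 again counted by entry, Tead2 and Tead3 were called, and the median was 0.004.

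Keratins other than Krt8 and Krt18 gave no call. Of 44 listed 11 were tested, 0 rose and 0 fell in edgeR, 9 of 11 had a fitted value above 0, and the median was 0.21. Krt19, another keratin of simple epithelia, was the most abundant of these with a median of 10.5 CPM and had a value of 0.37 (edgeR adjusted p = 0.490; 0.000623 with the replicate block). Of 12 epithelial genes 2 rose, Grhl3 by 0.69 ± 0.08 (edgeR adjusted p = 1.66e-05) and Cldn6 by 0.41 ± 0.06 (edgeR adjusted p = 0.000221). Grhl3 is an epithelial transcription factor and Cldn6 a tight-junction protein of early epithelia. In the auxin average 2.6% of all tested genes rose.

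Of 19 genes listed as repressors of trophectoderm genes in ES cells, 0 rose, 3 fell and the median was -0.02. For this list and the marker lists below, the shares over all tested genes were 2.6% that rose and 3.09% that fell. The pluripotency factors Nanog, Nr0b1 and Sall4 fell by 0.29 ± 0.04, 0.42 ± 0.12 and 0.53 ± 0.11 (log2, SE; edgeR adjusted p = 0.000532, 0.0383 and 0.00519). Oct4 (Pou5f1), the repressor of Cdx2 best known from ES cells, stood at 0.06 (edgeR adjusted p = 0.656). Of the 8 ES markers 4 fell, Klf4, Nanog, Zfp42 and Esrrb, by 1.09, 0.29, 0.34 and 0.24, and the others did not pass. Markers of primitive endoderm (9 tested, Sox7 rose by 0.77), neural cells (2 tested, Nes rose by 0.38) and fibroblasts (3 tested, 0 called) were measured alongside. Summed neural markers stood at 16.3 to 26.1 CPM untreated and 22.5 to 34.6 with auxin, and primitive endoderm markers at 96.1 to 199 and 79.3 to 177. Their part in the members' changes was not tested. Of the genes called from the lists above, Mmp9, Tead3, Tead2, Vgll4, Ctgf, Cldn6, Sox7, Wnt3 and Nes did not pass on either TPM scale (limma adjusted p = 0.0812 to 0.861), and Aqp3 and Esrrb did not on log2(TPM + 1) (0.0535 and 0.0520).

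**Figure D4:**
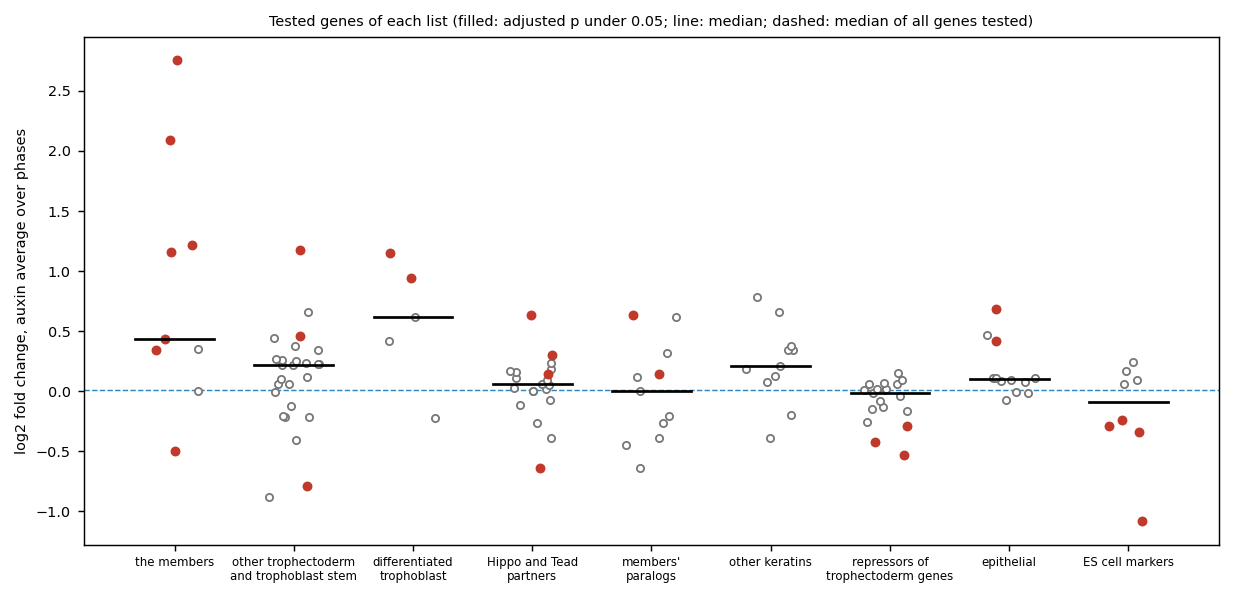
Log2 fold changes in the auxin average (vertical axis) of every tested gene in each list (horizontal axis); filled points have an edgeR adjusted p under 0.05, bars are list medians and the dashed line is the median of all tested genes, 0.006. The members span -0.50 to 2.76 with a median of 0.43, and the other lists drawn have medians between -0.09 and 0.62. Mesoderm and fibroblast markers, not drawn, had medians of -0.23 (4 tested) and -0.34 (3 tested).

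For each member called in the auxin average, the 2 abundant named genes with the most similar log2 CPM over the 18 libraries were listed, as a description that includes both treatment and replicate differences. Gata2 was the nearest to Cdx2 (Pearson r = 0.953) and to Dlx3 (0.936). Ngfr, a neurotrophin receptor, came next for both (0.925 and 0.934) and was nearest to Gata2 (0.940) among genes whose mean log2 CPM is 0 or more, a level Cdx2 does not reach, followed by Rassf3 (0.927). Eomes was most like Gprc5c (0.962) and Bhlhe40 (0.952), and Tfap2c most like Camk4 (0.908) and Akap5 (0.904). Krt8 and Krt18 had Sqstm1, an autophagy receptor, as their nearest gene (0.938 and 0.903), followed by Bnip3 (0.928) for Krt8 and Krt8 (0.888) for Krt18.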

How the data were processed

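Total RNA depleted of ribosomal RNA was sequenced in 18 libraries of the Sox2-AID line, grouped by the labels' titles. The deposited table of expected counts, written by the authors as whole numbers, holds 37620 genes. The deposited TPM table (transcripts scaled to length and to a common total) was made by the authors and is given to 2 decimals. The submitters' processing notes name STAR, RSEM and the mm9 assembly; versions, roles and strand settings are not given in the sources used here. Profiles of MNase-seq and ATAC-seq, and the ChIP-seq samples, were not used here because they hold no value per gene.

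Genes were kept by filterByExpr by group (16011), scaled by TMM and tested with edgeR 4.0.16 (robust quasi-likelihood test, R 4.3.3) in a model of 6 group means with 12 residual degrees of freedom. Calls had a Benjamini-Hochberg adjusted p under 0.05 over all tested genes. CPM are counts scaled to a common total by the TMM-scaled library size. An SE is the log2 fold change divided by the square root of F. The procedure was tested on simulated counts drawn independently for each library, with no difference by replicate number. That test does not cover the replicate differences seen in these data. Total counts of 24841963 to 37587322 set the depth, and within groups the chi-square per degree of freedom was 14.7 to 53.8, so replicates spread beyond counting error. Exact intervals of count ratios are conditional binomial intervals (95%).

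The labels do not say whether replicate numbers pair libraries. Deviations from group means correlated between same-numbered libraries at 0.26 to 0.29 for auxin in early G1, 0.22 to 0.29 for late G1 and 0.22 to 0.50 for untreated phases, so blocked values of members are printed there. For auxin in G2 the lowest value was 0.05, so no blocked value of a member is printed for that phase alone. The block itself covered all 18 libraries. Blocked averages, the blocked Eomes difference between phases and the blocked counts for G2 therefore include G2.

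The members and lists were chosen with earlier results of these data known. Every comparison covers the 10 members, by name or in its counts. Of each list, every gene called in the auxin average is named. For each called member the 2 genes with the highest Pearson r over the 18 libraries (log2 of CPM plus 0.5) are named, among tested genes whose mean log2 CPM is 0 or more and whose symbol is no clone or model name. A few uncalled list genes, and the genes of the closing observations, were picked after their values were seen. Alternatives were RLE size factors, DESeq2 1.42.0, no filter, a filter of 1 CPM in 3 libraries, limma 3.58.1 on log2(TPM + 1) and log2(TPM + 0.1), the block, and omitted libraries. RefSeq promoters were searched for exact motif matches.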

Additional observations from a re-analysis of the deposited data

How the results depend on the processing

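Counts of called members are given in the order early G1, late G1 and G2 for auxin, then late against early G1, G2 against early G1 and G2 against late G1 for untreated cells. On log2(TPM + 1) and on log2(TPM + 0.1), limma called 0, 0 and 0 members with auxin, 0 and 0 in both untreated G2 comparisons, and 5 in the auxin average in place of 7, where the median of all genes moved by -0.08 and -0.16. With the replicate block the counts were 4, 8 and 5, then 3, 4 and 3, and 8 in the average, where the block called 562 of 16011 genes for auxin in G2 and 3939 in the average. Each of the 18 libraries correlated best with its own number, a hint from the data and not the design, and the block changed no call of the differences between phases. DESeq2 called 2 in G2 against early G1. Without the untreated libraries numbered 3, auxin in early G1 had 0 and each untreated comparison had 0. Omitting 1 library, or all 6 libraries of 1 number (chosen after seeing the data), gave 0 to 1, 0 to 3 and 0 to 3 with auxin, 4 to 8 in the average, 0 to 0 for each difference between phases, and 0 to 1, 0 to 1 and 0 to 1 for untreated cells.

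Cdx2, Eomes, Gata2, Dlx3 and Tfap2c kept their calls in the auxin average under all 18 single-library omissions, RLE factors, DESeq2, no filter, both TPM scales and the block. As stated above, Dlx3 passed the low-count filter through its auxin libraries alone, so its call lends no support. The strict filter removed Cdx2, Dlx3 and Gata3, so it gave no value for them. Gata3 changed sign in DESeq2 (-0.00095) and in some omissions (-0.16 to 0.17), and no value of it passed. Krt8 lost its call with RLE factors (edgeR adjusted p = 0.0509) and without the untreated libraries numbered 3 (0.0958). Eomes in late G1 lost its call with no filter (edgeR adjusted p = 0.0613). Depth limits Hand1, Dlx3, Gata3 and Cdx2, whose libraries held 0 to 40 counts.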

Other observations

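Some other trophoblast and epithelial genes changed between phases in untreated cells. Gcm1, the syncytiotrophoblast factor, rose from early to late G1 by 1.44 ± 0.33 (log2, SE; edgeR adjusted p = 0.0129), and Sox21, an early lineage factor of the embryo, fell by 1.26 ± 0.31 (0.0173). Sox21 was also lower in G2 than in early G1 (-1.22 ± 0.31, edgeR adjusted p = 0.0337). Dab2, an endocytic adaptor of trophectoderm and primitive endoderm, was higher in G2 than in early G1 (0.60 ± 0.16, edgeR adjusted p = 0.0493) and late G1 (0.75 ± 0.17, edgeR adjusted p = 0.0103). Epcam and Ocln, both of epithelial junctions, fell from early to late G1 by 0.46 ± 0.10 and 1.09 ± 0.27 (edgeR adjusted p = 0.00944 and 0.0197), as Krt8 did. Dsp, a desmosome component, was lower in G2 than in early G1 (-0.60 ± 0.10, edgeR adjusted p = 0.00181). These genes were picked from the lists after their values were seen. Of all tested genes, 7.02% were called for late against early G1, 3.6% for G2 against early G1 and 5.04% for G2 against late G1.

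After removal of the group means, the log2 CPM of some members varied together over the 18 libraries. Eomes and Tead4 had a Pearson r of 0.859, Gata2 and Dlx3 of 0.772, Cdx2 and Dlx3 of 0.698, Cdx2 and Gata2 of 0.660, and Krt8 and Krt18 of 0.640. Eomes and Gata2, which both rose with auxin, had an r of -0.06, and Eomes and Tfap2c of -0.67. Libraries that share a replicate number vary together across genes, so these values are descriptions over libraries that are not independent.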
